A study of Mus musculus with 64 samples.

Results

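The gluconeogenesis genes described here are 9 of the 19521 genes in the deposited tables: G6pc, G6pc3, Slc37a4, Fbp1, Fbp2, Pck1, Pck2, Pcx and Sds. They were taken by gene symbol and not by a measured value, though earlier results of these data were known at the time. Male C57BL/6J mice gave 4 tissues for RNA sequencing, namely muscle, heart, liver and white adipose tissue (WAT). Each tissue has 4 groups: wild-type mice on chow (CTRL chow), wild-type mice on a high-sucrose diet (CTRL HSD), mice labelled as Pklr-/- mutants on chow (KO chow) and mice of that label on the high-sucrose diet (KO HSD). Diets were given for 8 weeks from the age of 8 weeks and all mice were killed at 16 weeks. Each of the 16 groups holds 4 libraries, 64 in all. The labels speak of 4 mice a group but tie no library to a mouse, so the libraries were taken as separate animals and p-values measure the spread between them.

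Gluconeogenesis makes glucose from lactate, alanine, other amino acids and glycerol. Most of its steps run glycolysis backwards with the same enzymes, and a few steps that glycolysis makes irreversible have enzymes of their own. Pyruvate carboxylase (Pcx) turns pyruvate into oxaloacetate in mitochondria. Phosphoenolpyruvate carboxykinase, cytosolic (Pck1) or mitochondrial (Pck2), turns oxaloacetate into phosphoenolpyruvate and so bypasses pyruvate kinase, the enzyme that Pklr encodes in liver. Fructose-1,6-bisphosphatase (Fbp1 in liver, Fbp2 in muscle) and glucose-6-phosphatase (G6pc in liver and kidney, G6pc3 in most tissues) remove the phosphates, and Slc37a4 carries glucose 6-phosphate into the endoplasmic reticulum for the last step. Sds, serine dehydratase, makes pyruvate from serine. Liver releases the glucose made. White fat uses pyruvate carboxylase and Pck1 for other ends, citrate for fat synthesis and the glycerol backbone of triglycerides.

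Total estimated counts ran from 5724322 to 12188595 per library, and levels are given as TPM, the usual length-corrected share of a library's transcripts. Among the 96 pairs of replicates none held identical values. Defining markers matched the labelled tissues: hepatocyte markers summed to between 53480 and 117200 TPM in liver, white adipocyte markers to between 35920 and 60070 TPM in WAT, cardiomyocyte markers to between 11710 and 17960 TPM in heart, and skeletal muscle fibre markers to between 34710 and 44790 TPM in muscle. Muscle KO chow replicate 2 also held cardiomyocyte markers at 1204 TPM, against 29.11 to 53.34 TPM in the other 15 muscles, with the heart myosin gene Myh6 at 175.6 TPM. Pklr was not lower in the labelled KO livers. It ran at 61.59, 138.9, 141.2 and 110.3 TPM in CTRL chow liver and at 245.8, 267.6, 186.7 and 146.8 TPM in KO chow liver, with no overlap, a log2 difference of 1.07 ± 0.26 (SE, edgeR adjusted p = 0.196). The genotype is therefore called "labelled KO" below. Summed acute phase transcripts reached 149900 TPM in CTRL chow liver against at most 18970 TPM in the other liver groups. A clock score was set as a mean log2 level of Hlf, Tef, Ciart, Dbp, Per3 and Per2 less the mean of Clock, Npas2 and Arntl, genes whose transcripts cycle over the day. It did not overlap between KO chow and KO HSD in WAT, heart or muscle, nor between CTRL HSD and KO HSD in any of the 4 tissues, nor between CTRL chow and CTRL HSD in liver. In WAT the score ran from -1.59 to 0.09 in KO chow, from -1.51 to 0.23 in CTRL HSD and from 2.45 to 3.3 in KO HSD. In liver it ran from 0.47 to 2.84 in CTRL chow, from -2.69 to -0.01 in CTRL HSD and from 2.07 to 3.52 in KO HSD.

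The last step had a sharp split of tissues. G6pc (chr11:101367561-101377903, plus strand of GRCm38) lay between 137.0 and 445.7 TPM over the 16 liver libraries, with a median of 264.1 TPM, and its medians in WAT, heart and muscle were 0.1042, 0.04304 and 0.05105 TPM. G6pc3 (chr11:102189620-102194081, plus strand) was lowest in liver, with medians of 44 TPM in WAT, 20.8 TPM in muscle, 16.92 TPM in heart and 2.296 TPM in liver. G6pc3 thus made up a median of 0.7875% of the pair's TPM in liver and at least 95.86% elsewhere. Slc37a4 (chr9:44396852-44402968, plus strand) was read in all 4 tissues, with medians of 119.1 TPM in liver, 18.58 TPM in WAT, 9.702 TPM in muscle and 7.49 TPM in heart.

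Fructose-1,6-bisphosphatase divided the tissues between neighbouring genes. Fbp1 (chr13:62864753-62888282) and Fbp2 (chr13:62836877-62858422) lie on the minus strand with 6330 bases between them. Fbp1 lay between 456.3 and 798.7 TPM in liver and had medians of 0.336, 0.08618 and 0.2106 TPM in WAT, heart and muscle. Fbp2 was highest in heart, from 9.653 to 18.35 TPM, followed by muscle, from 1.6 to 10.93 TPM, and WAT, from 0.3232 to 6.058 TPM. In liver Fbp2 had no count in 11 of 16 libraries. In the 4 CTRL chow livers together its 0 counts of 35828684 allow at most 3 counts, or 0.08373 CPM (counts scaled as TPM but not for length), counting error only.

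The carboxylating and decarboxylating steps were not liver-restricted. Pck1 (chr2:173153048-173159273, plus strand) had a median of 1980 TPM in WAT and 1350 TPM in liver, and the 2 ranges overlapped (1193 to 2812 and 531.3 to 1780 TPM). It was at 6.738 TPM in muscle and 0.5042 TPM in heart by median. Pcx (chr19:4510472-4621752, plus strand) was highest in WAT, from 324.0 to 784.9 TPM, with no overlap with liver at 76.01 to 158.8 TPM. Its medians in muscle and heart were 11.83 and 5.856 TPM. Pck2 (chr14:55540266-55551242, plus strand) had a median of 8.797 TPM in WAT and between 1.011 and 1.369 TPM in the other tissues, and so made up 73.78% of the carboxykinase TPM in heart but 0.4593% in WAT and 0.07529% in liver. Sds (chr5:120476526-120483932, plus strand) lay between 53.44 and 202.3 TPM in liver and had medians of 0 TPM in WAT and muscle and 0.1109 TPM in heart. Exons of Pck2 and Sds overlap other annotated genes by 53 and at most 360 bases, and the counting strand is not given in the sources used here. No 31-base stretch is shared within the pairs G6pc and G6pc3, Pck1 and Pck2, Fbp1 and Fbp2, or Sds and Sdsl.

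**Figure D1:**
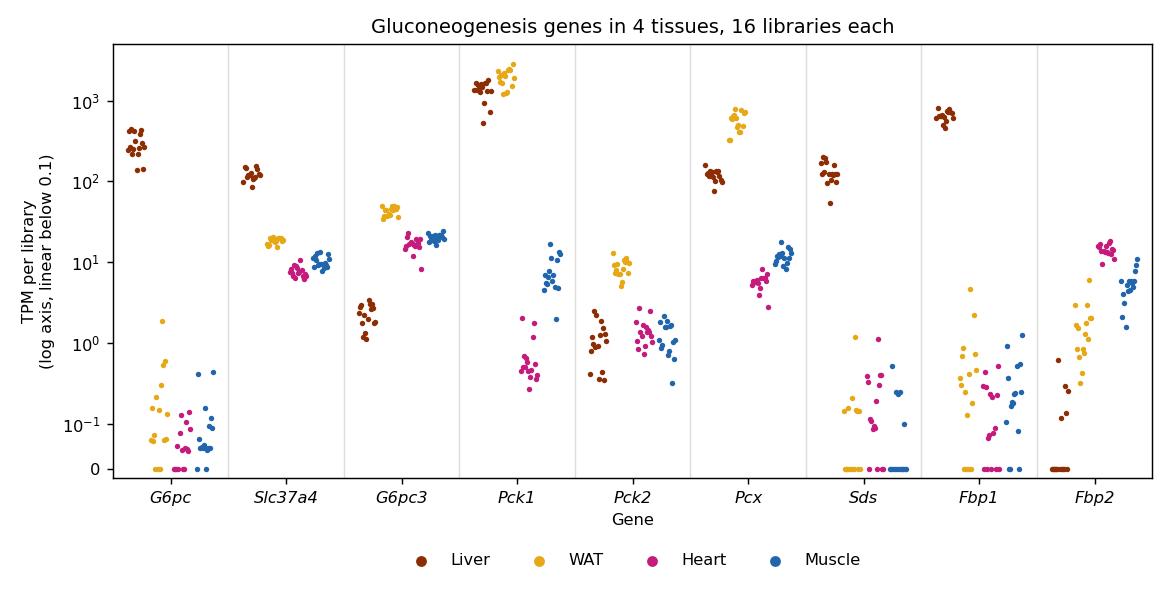
TPM of the 9 genes (x axis) in each of the 64 libraries, coloured by tissue, on a log axis that is linear below 0.1. G6pc, Fbp1 and Sds sit above 50 TPM in liver and below 5 TPM elsewhere, while Pcx is highest in WAT and Fbp2 in heart.

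The start regions of these tissue-restricted genes are printed to show the letters next to 4 genes with opposite tissue patterns, liver G6pc and Fbp1, liver and fat Pck1, and heart and muscle Fbp2. Each is the 250 bases before the start site in RefSeq (GRCm38.p6), 5′ to 3′ on the gene's strand: chr11:101367466-101367715 (plus), chr2:173152823-173153072 (plus), chr13:62888283-62888532 (minus) and chr13:62858401-62858650 (minus). Capitals mark letter matches, on either strand, to a searched motif.
G6pc: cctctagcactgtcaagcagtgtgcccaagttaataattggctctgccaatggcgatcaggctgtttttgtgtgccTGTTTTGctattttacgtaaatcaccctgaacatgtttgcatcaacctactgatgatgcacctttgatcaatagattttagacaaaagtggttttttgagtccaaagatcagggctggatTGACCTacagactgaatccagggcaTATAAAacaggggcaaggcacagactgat
Pck1: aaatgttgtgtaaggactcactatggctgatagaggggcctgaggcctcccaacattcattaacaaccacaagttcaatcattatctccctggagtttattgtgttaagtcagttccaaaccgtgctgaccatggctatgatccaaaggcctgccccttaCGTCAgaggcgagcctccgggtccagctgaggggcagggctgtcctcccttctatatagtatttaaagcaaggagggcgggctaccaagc
Fbp1: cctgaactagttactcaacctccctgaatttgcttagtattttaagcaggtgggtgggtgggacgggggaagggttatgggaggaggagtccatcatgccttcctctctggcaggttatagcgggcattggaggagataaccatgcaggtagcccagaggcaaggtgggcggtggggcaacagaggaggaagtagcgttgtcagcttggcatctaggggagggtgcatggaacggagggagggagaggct
Fbp2: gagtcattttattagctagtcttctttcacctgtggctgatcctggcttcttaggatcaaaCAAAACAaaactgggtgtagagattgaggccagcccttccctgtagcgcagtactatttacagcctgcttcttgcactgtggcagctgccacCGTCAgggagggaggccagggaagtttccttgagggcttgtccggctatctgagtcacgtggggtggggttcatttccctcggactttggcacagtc

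The motifs searched were TATAAA (the core promoter box), TGACG and TGACGTCA (short and full letters of the cAMP response element, the first contained in the second), TGTTTTG and GTAAACA (forkhead family letters) and AGGTCA (nuclear receptor letters). RefSeq gave 11 windows for 8 of the 9 genes, each the 250 bases above plus the next 50. The G6pc window held TATAAA at 29, AGGTCA (printed on the other strand as TGACCT) at 54 and TGTTTTG at 174 bases upstream. The Pck1 window held TGACG (as CGTCA) at 90 bases upstream, the Fbp2 window held it at 97 and TGTTTTG (as CAAAACA) at 189, and the Fbp1 window held none of the 6. Of all 32851 windows of this length, 13.6% held TATAAA, 20.8% TGACG, 1.79% TGACGTCA, 6.28% TGTTTTG, 3.65% GTAAACA and 16.3% AGGTCA, so that single matches are common. A match is a description of letters, and a missing match says only that those letters are not in this window.

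Differences between tissues were tested in the 16 CTRL chow libraries with edgeR's quasi-likelihood test, adjusted by Benjamini and Hochberg over 13707 genes with a threshold of 0.05. All 9 genes differed between liver and heart, where 71.2% of all genes did, and all 9 between liver and muscle (73.7% of all genes). Between liver and WAT 8 of 9 differed (73.4%), between WAT and heart 5 (64.7%), between WAT and muscle 6 (73.8%) and between heart and muscle 4 (49.2%). G6pc, Fbp1 and Sds entered the last 3 of these pairs only through their liver counts, and in these libraries outside liver each had at most 10 counts. Among the other 6 genes 4 differed between WAT and heart, 6 between WAT and muscle and 3 between heart and muscle. Within single tissues G6pc, Fbp1 and Sds had enough counts to be tested in liver alone, and Fbp2 in every tissue but liver. Their calls in the pairs with liver therefore follow from the tissue that let them pass the filter, and are no separate evidence. Since between 49.2% and 73.8% of all genes differed in these pairs, the sizes rather than the counts describe the 9 genes. Slc37a4 was higher in liver than in WAT by 4.54 ± 0.16 (log2, SE), than in heart by 4.34 ± 0.16 and than in muscle by 3.96 ± 0.16. G6pc3 was lower in liver than in heart, at -2.85 ± 0.20, and did not pass between heart and muscle, at -0.06 ± 0.16 (adjusted p = 0.78). Fbp2 was higher in heart than in muscle by 2.15 ± 0.32, whereas Pck1 and Pcx were lower in heart, at -2.49 ± 0.33 and -0.85 ± 0.19.

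The scale decided some directions between fat and liver. Scaling by library totals in place of TMM, a factor that sets most genes equal, moved the median of all genes between liver and WAT from 0.05 to -1.24. Pcx in liver minus WAT was -0.27 ± 0.18 with TMM (adjusted p = 0.175) and -1.57 ± 0.18 with library totals (edgeR adjusted p = 1.65e-07). Pck1 was higher in liver by 1.13 ± 0.27 with TMM (adjusted p = 0.000951) and lower there by the deposited TPM, at -0.45 (limma on log2 of TPM plus 1). G6pc3 between WAT and heart turned from -0.35 to 1.13 in the same way. The order of Pcx above muscle and heart did not turn: WAT exceeded muscle by 3.93 ± 0.20 and heart by 4.77 ± 0.21 with TMM, and by more on the other scales.

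In liver 8 of the 9 genes had enough counts to be tested within the tissue; Fbp2 had not. None passed in any of the 7 comparisons of diet and genotype. At an unadjusted p under 0.05 the edgeR counts were 1 for HSD against chow in CTRL, 0 in labelled KO, 1 for labelled KO against CTRL on chow, 1 on HSD, 1 for the interaction, 2 for the diets averaged over genotypes and 0 for the genotypes averaged over diets, and DESeq2 called 0 in each. Of all 11259 genes 4.67% passed for HSD in CTRL, 0.00888% for HSD in labelled KO, 0% for labelled KO on chow, 0.0711% for labelled KO on HSD, 0% for the interaction, 5.59% for the averaged diets and 0% for the averaged genotypes.

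G6pc read 243.9, 423.3, 264.5 and 445.7 TPM in CTRL chow liver, 220.7, 253.6, 421.8 and 319.4 in CTRL HSD, 137.0, 215.6, 258.6 and 380.1 in KO chow, and 430.2, 294.6, 142.2 and 263.6 in KO HSD. The groups overlapped throughout, and the KO HSD livers alone spanned from the second lowest to the second highest of the 16 values. HSD moved G6pc by -0.30 ± 0.33 in CTRL and 0.08 ± 0.33 in labelled KO, each smaller than its own standard error. Its partner Slc37a4 was tighter. Slc37a4 read 99.24, 149.3, 146.4 and 114.5 TPM in CTRL chow, 119.1, 120.5, 118.7 and 126.5 in CTRL HSD, 86.1, 108.1, 109.3 and 112.0 in KO chow, and 155.0, 143.8, 123.7 and 119.2 in KO HSD. Within labelled KO every HSD liver lay above every chow liver (7.44% of all genes did not overlap in that comparison), and the difference was 0.25 ± 0.12 (edgeR adjusted p = 0.518). The interaction was 0.43 ± 0.17 (adjusted p = 0.507), and -0.03 with the clock score as a covariate. In liver the clock scores of CTRL HSD overlap neither those of CTRL chow nor those of KO HSD. Score and interaction therefore cannot be told apart. G6pc3, the minor liver form, had a mean of only 20.7 counts per liver library. It was at 1.12 to 2.223 TPM in CTRL HSD and 1.777 to 2.968 TPM in CTRL chow, with overlap. The difference was -0.82 ± 0.29 (edgeR adjusted p = 0.111).

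Pck1 held within a narrow range in CTRL livers and a wide one in the labelled KO livers. It read 1362, 1641, 1332 and 1539 TPM in CTRL chow and 1339, 1262, 1622 and 1453 TPM in CTRL HSD. In KO chow it read 531.3, 922.4, 1651 and 1624 TPM, and in KO HSD 1326, 1780, 723.1 and 1324 TPM. The 2 lowest KO chow livers and the lowest KO HSD liver lay under all 8 CTRL livers, yet the group means did not separate: labelled KO against CTRL on chow was -0.29 ± 0.27 (edgeR adjusted p = 0.712). Fbp1 spanned 456.3 to 736.7 TPM in KO chow (SD 136.3) and 613.6 to 798.7 TPM in CTRL chow (SD 83.98). Its difference was -0.08 ± 0.13 (edgeR adjusted p = 0.864). Pcx read 76.01, 101.2, 132.6 and 128.9 TPM in KO chow against 158.8, 123.4, 127.7 and 116.0 TPM in CTRL chow, -0.24 ± 0.14 (adjusted p = 0.504).

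Sds was the only 1 of the 8 tested genes whose liver groups did not overlap between genotypes, on chow, where 5.14% of all 11259 genes did not overlap. On HSD 0 of the 8 were without overlap (3.84% of all genes), and for HSD against chow the counts were 0 in CTRL (13.4%) and 1 in labelled KO, Slc37a4. It read 166.5, 123.0, 202.3 and 130.3 TPM in CTRL chow and 53.44, 103.3, 122.8 and 118.4 TPM in KO chow. Each KO chow liver was below every CTRL chow liver, though the highest of the first and the lowest of the second differed by less than 1 TPM. The log2 difference was -0.60 ± 0.27 (unadjusted p = 0.0392, adjusted p = 0.385), and without CTRL chow replicates 1 and 3, the livers with high acute phase transcripts, it was -0.31. On HSD the Sds ranges overlapped, 95.6 to 192.0 TPM in CTRL and 97.04 to 159.1 TPM in labelled KO.

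Single livers stood at one end for most genes. KO chow replicate 1 was the lowest of its 4 livers in 8 of the 8 tested genes, and KO HSD replicate 1 the highest of its 4 in 7 of 8. KO chow replicate 1 was also the lowest of its group in summed hepatocyte markers, at 84530 TPM against 101000, 107000 and 106000 TPM in the other 3 livers. It was lowest as well in periportal markers, at 5176 TPM against 5868 to 6815 TPM, and in pericentral markers, at 5285 TPM against 5549 to 7206 TPM. Hepatocyte markers summed lower still in CTRL chow replicates 1, 3 and 4, at 53480, 80460 and 75080 TPM. These livers were the lowest of their group in 4, 1 and 2 of the 8 tested genes. The part of the markers in the spread was not tested. Over the 16 livers Spearman's correlation, a description across libraries that share preparation and depth, was 0.62 between G6pc and Pck1, 0.54 between Pcx and Sds, 0.53 between Fbp1 and Slc37a4, and 0.06 between Slc37a4 and Pcx.

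**Figure D2:**
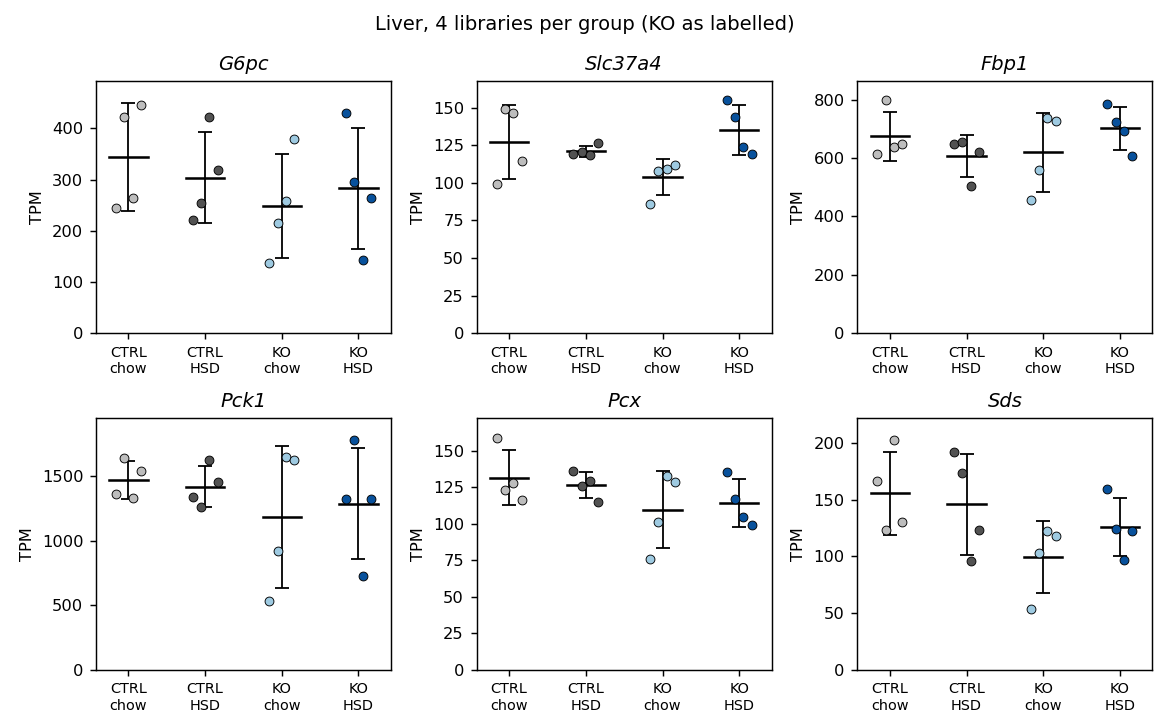
TPM per liver library (points) with the group mean and SD (bars) for the liver-expressed genes, by genotype and diet on the x axis. The groups overlap for G6pc, Pck1, Fbp1 and Pcx, and Sds in KO chow (53.44 to 122.8 TPM) lies below CTRL chow (123.0 to 202.3 TPM).

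Around these genes 10 genes of the pathway lists passed for diet in CTRL liver, where 4.67% of all genes passed in either direction. A list with 1 call says little against that share. In this comparison the clock scores of the 2 groups do not overlap. Among the reversible steps shared with glycolysis, Gpi1 (glucose-6-phosphate isomerase) rose by 0.76 ± 0.15. Of the 7 genes of the opposing glycolytic steps 1 rose, Pfkfb1, by 0.61 ± 0.15. Of 4 tested glycerol entry genes 2 rose, the mitochondrial glycerol-3-phosphate dehydrogenase Gpd2 by 0.75 ± 0.15 and glycerol kinase Gk by 0.52 ± 0.11. In the lactate, alanine and aspartate entry list of 15 the pyruvate carrier gene Mpc1 rose by 0.44 ± 0.12 and the alanine aminotransferase Gpt fell by 0.97. None of 13 amino acid genes passed. In the list of 20 regulators Ppargc1a, a coactivator of gluconeogenic genes in fasting, rose by 1.15 ± 0.20, while the glucagon receptor Gcgr and the cAMP coactivator Crtc2 had differences of -0.62 ± 0.15 and -0.76 ± 0.21. All 10 kept their direction without CTRL chow replicates 1 and 3 and with the clock score. In either fit 0 of 10 still passed, Ppargc1a being at 1.11 ± 0.26 (edgeR adjusted p = 0.0536) and 1.67 ± 0.32 (adjusted p = 0.121). The first of these fits has fewer CTRL chow libraries, so that a call is harder to reach.

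None of the 8 tested gluconeogenesis genes passed where Ppargc1a rose. The median difference of the 8 between CTRL HSD and CTRL chow was -0.23, against -0.02 over all genes. Single differences ran from -0.82 ± 0.29 for G6pc3 to 0.77 ± 0.38 for Pck2. The 8 were read in the same libraries, so their directions are not separate results. In labelled KO the same diet gave a median of 0.06 and no list gene passed, with Ppargc1a at 0.81 ± 0.20 (edgeR adjusted p = 0.126) and Gpi1 at 0.76 ± 0.15 (adjusted p = 0.122). For the interaction 0% of the liver genes passed, so none of these differences was shown to depend on genotype. Liver clock genes moved too, 3 up and 6 down of 18 in CTRL, where 4.67% of all genes passed, and 3 of 16 acute phase genes fell. Summed hepatocyte markers ran from 53480 to 99920 TPM in CTRL chow and from 99620 to 113200 TPM in CTRL HSD. The part of these markers in the list results was not tested.

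White fat was the tissue in which a gene of the set passed for diet. Pcx read 324.2, 324.0, 602.7 and 588.1 TPM in CTRL chow, 637.5, 653.3, 784.9 and 608.2 in CTRL HSD, 471.9, 497.0, 403.2 and 410.6 in KO chow, and 763.3, 481.2, 706.6 and 725.1 in KO HSD. All 4 CTRL HSD libraries lay above all CTRL chow libraries (20% of all genes did not overlap in that comparison, in either direction), and 3 of 4 KO HSD libraries lay above all KO chow libraries, KO HSD replicate 2 falling among them. Pcx rose on HSD by 0.74 ± 0.21 in labelled KO (edgeR adjusted p = 0.0479), and the CTRL difference was 0.72 ± 0.21 (adjusted p = 0.0599). The interaction was 0.02 ± 0.30 (95% interval -0.61 to 0.66), which does not show that the genotypes responded alike. Averaged over the genotypes the rise was 0.73 ± 0.15 (edgeR adjusted p = 0.00618), and every omission of a single library kept it, between 0.67 and 0.82. No fit left out CTRL chow replicates 1 and 2 together, the libraries at 324.2 and 324.0 TPM.

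In WAT 6 of the 9 genes could be tested (not G6pc, Fbp1 or Sds). Of these 0 passed in CTRL for HSD, where 4.77% of all 13255 genes did, with 3 at an unadjusted p under 0.05 and 1 called by DESeq2. In labelled KO 1 passed, Pcx, against 6.38% of all genes, and averaged over genotypes 2 passed, Pcx and Slc37a4, against 11% of all genes. For genotype none passed on chow (6.68% of all genes), on HSD (0.106%), averaged (3.09%) or as an interaction (0.573%); at an unadjusted p under 0.05 the edgeR counts were 0, 1, 2 and 1, and DESeq2 called 0, 1, 0 and 0. The Pcx call in labelled KO rests on a margin: it held in 1 of the 8 fits that each left out a library, the one without KO HSD replicate 2, with adjusted p from 0.0221 to 0.118.

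Slc37a4 had a smaller shift in the same direction. It read 16.78, 15.88, 16.29 and 20.17 TPM in CTRL chow and 18.78, 19.32, 20.58 and 18.1 TPM in CTRL HSD. The labelled KO libraries read 17.83, 18.38, 15.57 and 19.83 TPM on chow and 19.99, 20.24, 18.07 and 19.05 TPM on HSD. Ranges overlapped in each genotype, and the averaged rise of 0.26 ± 0.08 (edgeR adjusted p = 0.0417) kept its call in 6 of the 16 fits that left out a library, with adjusted p from 0.0296 to 0.0895. Pck1, the other abundant fat enzyme, did not shift as a group: it read 2288, 1977, 1716 and 2040 TPM in CTRL chow and 1649, 1193, 2207 and 1984 TPM in CTRL HSD. In labelled KO it read 1254, 1287, 2372 and 2456 TPM on chow and 2401, 1516, 2812 and 1910 TPM on HSD, with an averaged difference of 0.19 ± 0.18 (edgeR adjusted p = 0.549). G6pc3 stayed between 34.17 and 49.87 TPM in all 16 libraries and Pck2 between 5.122 and 13.16 TPM.

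Fbp2 was low in fat but split the HSD groups by genotype. It read 0.6799, 0.3232, 0.4307 and 0.8352 TPM in CTRL HSD and 1.125, 6.058, 2.034 and 2.049 TPM in KO HSD, without overlap, as for 5.82% of all genes in that comparison. On chow the ranges were 0.8523 to 2.927 TPM in CTRL and 0.7567 to 2.956 TPM in labelled KO. In WAT 0 of 6 genes were without overlap for HSD in labelled KO (15.9% of all genes) and for labelled KO on chow (11.9%). Within CTRL the Fbp2 values of the HSD libraries also lay below the chow libraries, -1.43 ± 0.59 (edgeR adjusted p = 0.16). The HSD difference between genotypes was 2.26 ± 0.58 (edgeR unadjusted p = 0.00117, adjusted p = 0.159; DESeq2 2.29, adjusted p = 0.0396), and without KO HSD replicate 2 it was 1.66. The interaction was 2.24 ± 0.78 (edgeR adjusted p = 0.152). The clock scores separate the same HSD groups, and with the score as a covariate the genotype difference on HSD was 1.85 (edgeR adjusted p = 0.931), so score and genotype cannot be told apart there.

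**Figure D3:**
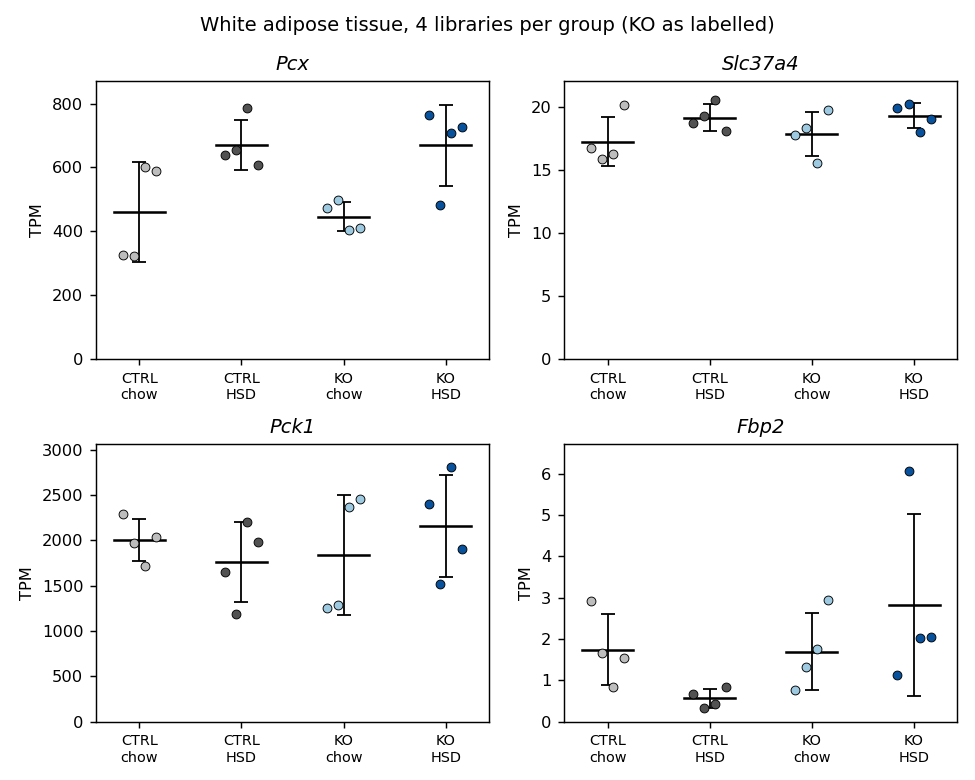
TPM per WAT library (points) with the group mean and SD (bars) for the genes read in fat, by genotype and diet on the x axis. Pcx is higher on HSD in both genotypes (means of 671.0 and 669.1 TPM against 459.8 and 445.7 TPM), and Fbp2 in CTRL HSD (0.3232 to 0.8352 TPM) lies below KO HSD.

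In fat 12 genes of the pathway lists rose on HSD averaged over genotypes, where 11% of all genes passed in either direction. A list with 1 or 2 calls says little against that share. Averaged over genotypes, 4 of 15 lactate, alanine and aspartate entry genes rose and none fell: Ldhb (lactate dehydrogenase B) by 0.34 ± 0.06, Gpt2 (mitochondrial alanine aminotransferase) by 0.45 ± 0.08, Mpc1 by 0.70 ± 0.14 and Mdh1 (cytosolic malate dehydrogenase) by 0.33 ± 0.09. Gpd2 rose by 0.97 ± 0.15 as the 1 of 5 glycerol genes. Among 8 reversible steps Gpi1 (0.32 ± 0.07) and Aldoa (0.47 ± 0.13) rose, and among 5 opposing steps Pfkfb1 (0.58 ± 0.09) and the fructokinase Khk (0.78 ± 0.17). Of 10 amino acid genes Prodh, proline dehydrogenase, rose by 0.47 ± 0.14. Of 18 regulators Klf15, a glucocorticoid-induced factor, rose by 0.79 ± 0.14 and Cebpa by 0.36 ± 0.11. A refit left out CTRL chow replicates 2 and 4, a pair chosen on grounds not reported here. All 12 kept their direction in that refit, where 7 still passed, and with the clock score, where 2 did. The first of these fits has fewer CTRL chow libraries, so that a call is harder to reach. The genes whose levels followed Pcx most closely over the 16 WAT libraries were Atp5a1 and Stat5a (Spearman 0.96 each) and Gucd1 (0.95), of 9486 candidates. For Slc37a4 they were Isca1 and Ldhb (0.87 each) and Atp5j (0.86), and for Pck1 Pnpla2 (0.88), Pdk2 (0.87) and Bsdc1 (0.86).

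Cell markers moved in the same WAT libraries. Of 7 white adipocyte markers Retn (0.55 ± 0.14) and Cfd (0.96 ± 0.26) rose and Lep fell by 1.04, and the summed level ran from 35920 to 51000 TPM in CTRL chow, 44000 to 53270 in CTRL HSD, 38540 to 52430 in KO chow and 47950 to 60070 in KO HSD. Of 5 endothelial markers 4 fell and none rose, and of 5 tested macrophage markers Cd68 had -0.56 ± 0.13 and the rest did not pass. In bulk tissue fewer cells of a type and less RNA per cell cannot be told apart, and the part of these markers in the Pcx rise was not tested. Of 18 clock genes 8 rose and 1 fell. Over all WAT genes 11% passed for the averaged diets. With the clock score as a covariate the averaged Pcx difference was 0.74 (adjusted p = 0.137), and since KO chow and KO HSD scores do not overlap, score and diet cannot be told apart in that genotype.

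**Figure D4:**
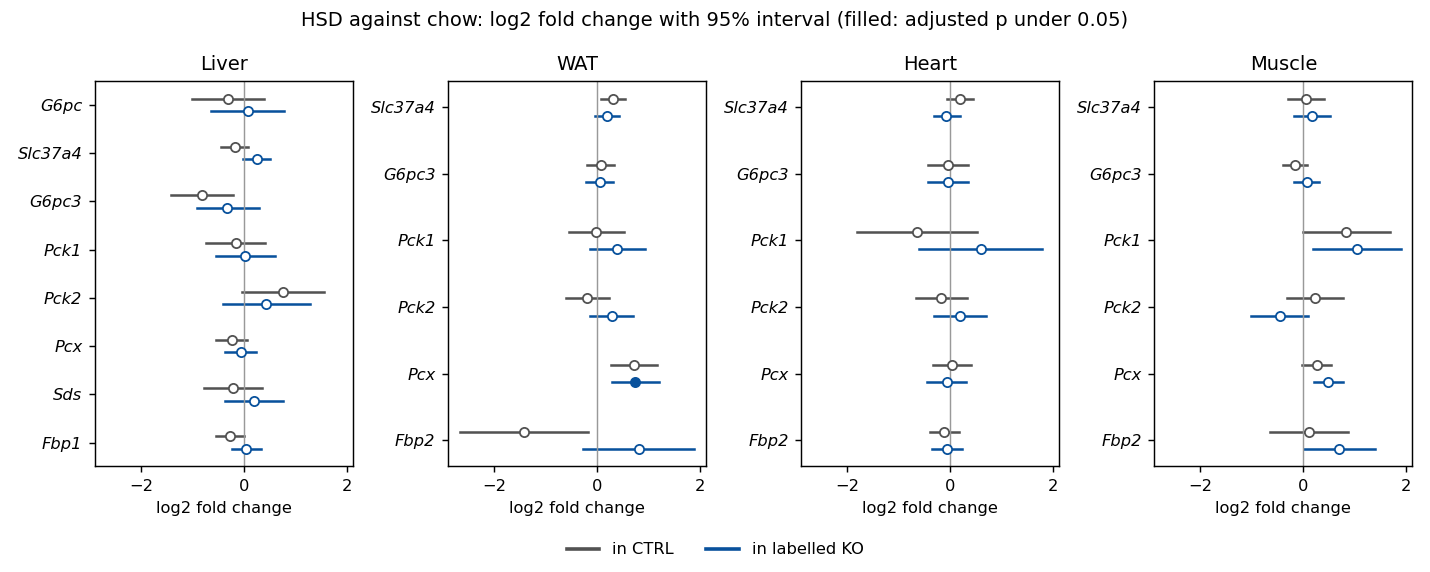
Log2 fold change of HSD against chow for each tested gene, with its 95% interval, in each tissue and genotype; filled points have an adjusted p under 0.05. Only Pcx in WAT of labelled KO is filled, at 0.74, and the CTRL value is 0.72.

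In heart, where Fbp2 and G6pc3 were the main members, no gene of the set passed for diet or genotype. Fbp2 had group means of 15.49 TPM in CTRL chow, 13.11 in CTRL HSD, 15.40 in KO chow and 13.17 in KO HSD, a diet difference of -0.09 ± 0.10 averaged over genotypes (edgeR adjusted p = 0.867). G6pc3 had group means from 15.12 to 18.55 TPM. Slc37a4, with 6.252 to 7.157 TPM in KO HSD and 7.359 to 10.59 TPM in KO chow, did not overlap between those groups (6.82% of all genes did not) yet differed by -0.07 ± 0.12 with TMM (adjusted p = 0.96). Of the 6 tested genes 0 passed for HSD in CTRL (0.0247% of all 12134 genes), HSD in labelled KO (0.14%), labelled KO on chow (0%), labelled KO on HSD (0.0412%), the interaction (0.00824%), the averaged diets (0.173%) and the averaged genotypes (0%). In the other comparisons of 2 heart groups 0 of the 6 genes were without overlap, against 7.34% of all genes for HSD in CTRL, 2.13% for labelled KO on chow and 3.34% for labelled KO on HSD. In each of these 7 comparisons edgeR had 0 at an unadjusted p under 0.05, and DESeq2 called 0. No entry or regulator gene of the pathway lists passed for the averaged diets.

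Muscle had Pck1, Pcx and Fbp2 at medians of 6.738, 11.83 and 5.375 TPM, and these were the genes nearest to a call. Pck1 read 4.542, 7.026, 5.606 and 5.402 TPM in CTRL chow, 6.563, 7.776, 16.93 and 11.36 in CTRL HSD, 5.9, 6.914, 4.915 and 2.017 in KO chow, and 10.7, 4.794, 13.48 and 12.79 in KO HSD. The diet groups overlapped in each genotype, through CTRL HSD replicate 1 and KO HSD replicate 2. The averaged difference was 0.95 ± 0.28 (edgeR adjusted p = 0.121; DESeq2 adjusted p = 0.0463). Pcx read 9.489, 10.5, 11.99 and 11.67 TPM in CTRL chow, 12.75, 12.01, 17.57 and 12.85 in CTRL HSD, 9.023, 11.44, 8.333 and 9.687 in KO chow, and 15.65, 11.21, 14.41 and 12.99 in KO HSD. The CTRL groups did not overlap, by a narrow gap (7.47% of all genes did not overlap), and the labelled KO groups did through KO HSD replicate 2. Its averaged difference was 0.38 ± 0.10 (edgeR adjusted p = 0.0625; DESeq2 adjusted p = 0.0171). Without KO chow replicate 2, the muscle with heart transcripts, the averaged differences were 1.05 for Pck1 (edgeR adjusted p = 0.115) and 0.43 for Pcx (adjusted p = 0.0436). Without KO HSD replicate 2, which held kidney transcripts, they were 1.07 (edgeR adjusted p = 0.0696) and 0.42 (adjusted p = 0.0484). Over all 16 fits that left out a library, Pcx ran from 0.31 to 0.43 (edgeR adjusted p from 0.0436 to 0.133). It stayed short of the threshold in 14 of them. Pck1 ran from 0.79 to 1.07 (edgeR adjusted p from 0.0696 to 0.217) and passed in none. Of the 6 tested genes 0 passed for HSD in CTRL (0.091% of all 12092 genes), HSD in labelled KO (0.00827%), labelled KO on chow (0%), labelled KO on HSD (0%), the interaction (0%), the averaged diets (1.12%) and the averaged genotypes (0%). At an unadjusted p under 0.05 the edgeR counts in that order were 0, 3, 0, 2, 0, 2 and 2, and DESeq2 called 0 in all but the averaged diets, where it called 2. For the averaged genotypes the edgeR count was Fbp2 and Pck2. DESeq2 gave no adjusted p for them there, so its 0 decides nothing about these genes.

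Fbp2 and Pck2 split the muscle HSD groups by genotype in opposite directions. Fbp2 read 1.6, 5.255, 4.434 and 5.816 TPM in CTRL HSD and 5.872, 7.883, 9.304 and 10.93 TPM in KO HSD, and Pck2 read 2.196, 1.562, 1.564 and 1.88 TPM against 0.3181, 1.031, 0.6438 and 1.083 TPM. Neither pair overlapped, in a comparison where 3.79% of all genes did not. For HSD in labelled KO and for labelled KO on chow 0 of the 6 genes were without overlap, against 4.95% and 4.05% of all genes. The differences were 1.02 ± 0.34 for Fbp2 and -0.77 ± 0.26 for Pck2, each with an edgeR adjusted p of 0.912 over 12092 genes of which 0% passed. The clock score separates these groups too, at -1.82 to -0.34 in CTRL HSD and 0.26 to 1.28 in KO HSD, and with it as a covariate the differences were 0.23 and -1.21 (edgeR adjusted p = 0.978 and 0.964). Score and genotype cannot be told apart in these groups. On chow the highest KO muscle Fbp2, 5.911 TPM, was in replicate 2, and without that library the HSD difference of Fbp2 in labelled KO was 0.78 in place of 0.70. G6pc3 stayed at 16.15 to 24.12 TPM and Slc37a4 at 7.881 to 13.39 TPM in all 16 muscles.

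Adipocyte transcripts moved with Pck1 and Pcx in muscle. Of 7 white adipocyte markers 5 rose with HSD and none fell, Plin1 by 0.91 ± 0.17, Cfd by 0.91 ± 0.16, Cidec by 0.96 ± 0.18, Retn by 1.07 ± 0.23 and Adipoq by 0.79 ± 0.18, and no skeletal muscle fibre marker of 9 passed. Over all muscle genes 1.12% passed for the averaged diets. Adipoq, the adipocyte hormone, ran from 11.92 to 15.64 TPM in CTRL chow muscle, 18.42 to 37.85 in CTRL HSD, 12.74 to 26.33 in KO chow and 26.4 to 36.29 in KO HSD. By median the muscles held 0.5% of the WAT mean of Adipoq, 0.516% of Plin1, 0.326% of Cidec and 0.347% of Pck1, but 2.11% of Pcx. Over the 16 muscles Spearman's correlation was 0.87 between Pck1 and Cidec, 0.75 between Pck1 and Adipoq, 0.79 between Pcx and Cidec and 0.69 between Pcx and Adipoq, a description of libraries that share diet groups. Cfd (0.90), Cidec (0.84) and Gpd1 (0.81) were the genes most like Pcx there. The part of adipocyte RNA in the muscle values was not tested.

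**Figure D5:**
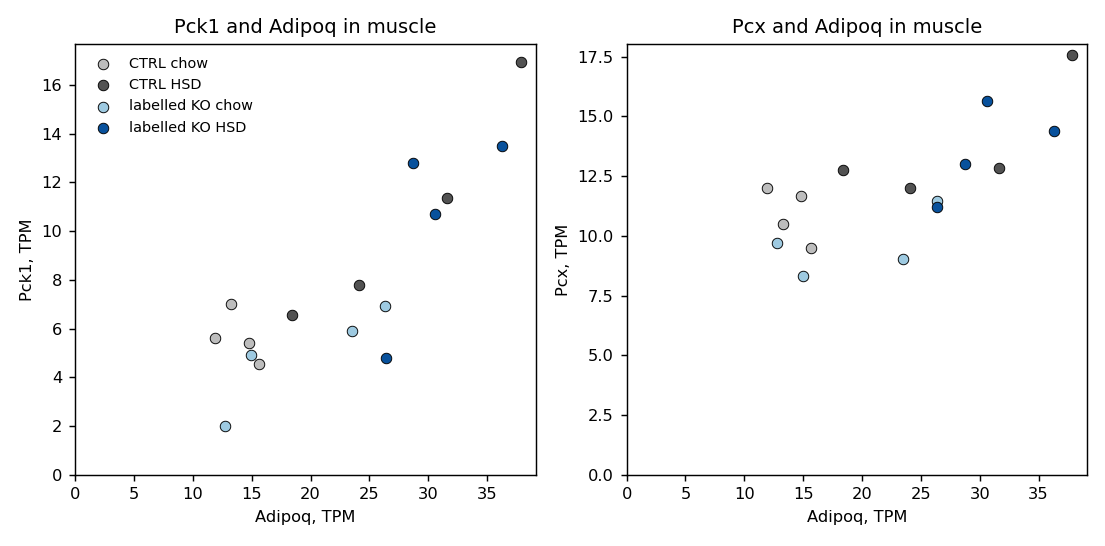
Pck1 and Pcx (y axes, TPM) against Adipoq (x axis, TPM) in the 16 muscle libraries, by group. Libraries with more Adipoq have more of both genes (Spearman 0.75 for Pck1 and 0.69 for Pcx).

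Outside liver, the liver genes were at trace levels. G6pc was above 0 in 13 of 16 WAT, 10 of 16 heart and 14 of 16 muscle libraries, and Fbp1 in 12, 11 and 13. The highest values were in a few libraries, of which some held more hepatocyte or kidney tubule transcripts than the rest and some did not. WAT KO chow replicate 3 had summed hepatocyte markers of 574.2 TPM, 0.5859% of the liver mean, with G6pc at 0.644%, Fbp1 at 0.728% and Sds at 0.902% of theirs. Muscle CTRL chow replicate 2 held 0.07977% of the liver's hepatocyte marker level, with G6pc at 0.141% and Fbp1 at 0.142%, and also had kidney tubule markers at 9.258 TPM, of which Kap, a kidney androgen-regulated gene, made 8.752 TPM. Muscle KO HSD replicate 4 held 0.07559%, with G6pc at 0.148% and Fbp1 at 0.194%. Kidney tubule markers were highest in muscle KO HSD replicate 2, at 20.73 TPM, where hepatocyte markers were at 12.5 TPM and Fbp1 at 0.5512 TPM. In WAT KO HSD replicate 2, which had the highest Fbp2 of the WAT libraries, kidney tubule markers summed to 13.18 TPM, Fbp1 to 2.21 TPM and G6pc to 0.5977 TPM, beside hepatocyte markers of 38.43 TPM. WAT KO chow replicate 4 had G6pc at 0.5315 TPM with hepatocyte markers at 31.96 TPM, and heart KO chow replicate 3 had Sds at 0.843% of the liver mean with hepatocyte markers at 15.13 TPM. The part of other tissues' RNA in these values was not tested, and they are too low for any comparison of conditions.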

How the data were processed

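The authors deposited estimated counts and TPM per gene for 64 libraries; per the submitters' processing notes the tools and build include kallisto (version not given in the sources used here) and GRCm38. The deposited TPM values were used as they stand for levels. The estimated counts, made whole by rounding, went into edgeR 4.0.16 under R 4.3.3. Steps were the low-count filter filterByExpr (minimum 10), TMM factors, a robust quasi-likelihood fit of the 16 libraries of a tissue with 1 mean per group, 2-sided tests and Benjamini-Hochberg adjustment over all genes tested, with a threshold of 0.05. Standard errors come from the log2 fold change and its F value, and intervals are 95%. Tissues were compared in the 16 CTRL chow libraries. Depth ran from 5724322 to 12188595 counts, and TPM of the listed genes summed to between 816010 and 926964 per library.

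All 9 genes are named in every tissue, with Pklr, up to 4 genes with the smallest p per list described, and the 3 genes most correlated with a member. Members, lists and tests were chosen with earlier results of these data known. The result of 1 list gene is not reported here. Comparisons averaged over genotypes or diets, scaling by library totals and refits of the pathway lists were added after the data were seen. Alternatives were DESeq2 size factors, DESeq2 1.42.0, limma 3.58.1 on log2 of TPM plus 1, no low-count filter, only the compared libraries, omitted libraries and a clock score as covariate. Simulated data were made from the WAT libraries for HSD against chow in CTRL, with 13255 genes. There 25.4% of 1.5-fold, 56.7% of 2-fold and 86.4% of 4-fold changes were recovered, with 2 false calls. From the liver libraries, with 11259 genes, the shares were 28.4%, 61.2% and 90.9%, with 5 false calls. Title numbers repeat across tissues. Deviations of same-numbered libraries correlated by -0.06 to 0.33. Differently numbered libraries were not compared, so these values cannot decide whether a number marks a mouse. The 4 numbers of the CTRL chow libraries occur in all 4 tissues, so the tissues compared may come from the same mice. Since no label says so, the numbers were not taken to pair samples.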

Additional observations from a re-analysis of the deposited data

Results flagged for a closer look

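Of 104 groups of 4 libraries checked for the tested genes, 6 held 1 library far from the other 3, and chance alone marks about 1 in 20 groups. G6pc3 was low in WAT KO HSD replicate 4, at 35.96 TPM against 46.01 to 47.91 TPM in the others, and in heart CTRL HSD replicate 4, at 11.89 TPM. Pck1 in heart was high in CTRL chow replicate 2, at 2.043 TPM, and in KO HSD replicate 1, at 1.773 TPM. The adipocyte gene Cidec was also highest in these hearts, at 2.425 and 2.621 TPM against at most 1.403 TPM in the other 14, and over the 16 hearts Spearman's correlation of Pck1 was 0.91 with Cidec, 0.72 with Plin1 and 0.54 with Adipoq. The part of adipocyte RNA in heart Pck1 was not tested. Slc37a4 was low in liver KO chow replicate 1, at 86.1 TPM, the liver with the lowest hepatocyte markers of its group. CTRL chow replicates 1, 3 and 4 had lower hepatocyte markers. Pcx was high in muscle CTRL HSD replicate 3, at 17.57 TPM, the library with the highest muscle Pck1.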

How the results depend on the processing

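Recomputed under each alternative, 988 single values kept direction and side of the threshold, 43 lost a call, 20 gained one and 10 reversed, and of the counts 540 held within 1.5 times and 30 moved. The WAT count for HSD in CTRL, 0, was 1 with DESeq2 and 0 to 1 with a library left out. For HSD in labelled KO the count of 1 was 0 without the low-count filter, with limma and with the clock score, and 0 to 1 with a library left out. For labelled KO against CTRL on HSD it was 1 with DESeq2. The averaged WAT diet count of 2 was 1 without the filter, with limma and without CTRL chow replicates 2 and 4, 0 with the clock score, and 1 to 2 with a library left out. The averaged muscle diet count of 0 was 2 with DESeq2 and 0 to 1 with a library left out. With the clock score the liver interaction of Slc37a4 reversed to -0.03 and the muscle HSD difference of Fbp2 in labelled KO, 0.70, to -0.43. In both cases the scores of compared groups do not overlap, so score and condition cannot be told apart. With limma on TPM and with library totals, the differences that reversed were Pck1 between liver and WAT (-0.45 and -0.18), G6pc3 between WAT and heart (1.13 and 0.62) and between WAT and muscle (0.98 and 0.58), and Slc37a4 between WAT and muscle (0.65 and 0.41). The fit with library totals differs from the main fit in its scaling alone. The limma fit differs also in its test and length correction, whose parts were not tested. With the title number as a replicate block the tissue counts over all 9 genes were 8, 9, 9, 5, 7 and 4, against 8, 9, 9, 5, 6 and 4. Within a tissue no number occurs in 2 groups, so no paired analysis was possible there. Low counts limit Fbp2 in WAT, G6pc3 in liver, Pck2 in liver and muscle, and Pck1 in heart.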
